A study of Arabidopsis thaliana with 14 samples.

Results

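Rosettes of the estradiol-inducible WRKY75 line N2102362 were compared with rosettes of wild-type Arabidopsis thaliana Col-0 after the same estradiol spray. The comparison took the 4 libraries titled N2102362 estradiol and the 3 titled Col-0 estradiol, 7 of the 14 RNA-seq libraries in the series. It covered all 33602 genes of the count files and was repeated with replicates 1 to 3 of the line, because the file of replicate 4 carries a date that the other 3 lack. The other 7 libraries are 3 of Col-0 sprayed with water and 4 of a second inducible line, N2102363, and they enter here to estimate the spread and to show whether a difference was shared. Plants of all groups were 3 weeks old, whole rosettes were taken 3 h after the spray, and each library came from a pool of 5 rosettes. The spray held 50 µM estradiol and 0.001% Silwet-L77, a wetting agent, and the water control held the wetting agent alone.

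These groups have limits as a model. N2102362 is 1 independent transgenic line, so a difference from Col-0 may belong to the induced gene or to the line, and these cannot be told apart within the line. Plants of the line without estradiol were not analysed here, so levels before induction were not measured. Counts are per gene and do not separate WRKY75 RNA of the native locus from that of the construct. The design text gives 4 replicates of a line while the protocol for RNA names 3, and what replicate 4 was is not given in the sources used here. In bulk rosettes, fewer cells of a type and less RNA per cell cannot be told apart.

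WRKY proteins are plant transcription factors that bind W-boxes, short promoter motifs with the core TTGAC. WRKY75 is known in Arabidopsis from phosphate starvation and root hair growth, leaf senescence, pathogen response and the timing of flowering. In an estradiol-inducible line, a chimeric activator that enters the nucleus with estradiol switches on the construct, so that early changes in RNA can be followed after a spray.

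The upstream sequences of the called genes are shown because W-boxes are the sites WRKY proteins bind. Each window is the 300 bases before the outermost annotated start of the gene, 5′ to 3′ on the gene's strand, read from the TAIR10 genome with RefSeq gene models. Capitals mark the W-boxes TTGACC and TTGACT, searched on both strands, and 31.7% of the windows of 19576 tested nuclear genes held at least 1. CYP81D5 had 2, starting 293 and 275 bases before the start. WRKY75 had 1, starting 11 bases before the start of the native gene. TPPI, IRT3, the pseudogene AT1G42140 and AT3G01345 had neither of these motifs in the window. The core TTGAC followed by other bases was not searched for, and the TPPI window holds it followed by A. The window of AT3G01345 overlaps a neighbour's exons. Thus 2 of the 6 windows of called genes held TTGACC or TTGACT. The windows lie at chr4:17561976-17562275 (minus strand, CYP81D5), chr5:4151202-4151501 (minus strand, WRKY75), chr1:22447300-22447599 (minus strand, IRT3) and chr5:3157394-3157693 (plus strand, TPPI).
CYP81D5: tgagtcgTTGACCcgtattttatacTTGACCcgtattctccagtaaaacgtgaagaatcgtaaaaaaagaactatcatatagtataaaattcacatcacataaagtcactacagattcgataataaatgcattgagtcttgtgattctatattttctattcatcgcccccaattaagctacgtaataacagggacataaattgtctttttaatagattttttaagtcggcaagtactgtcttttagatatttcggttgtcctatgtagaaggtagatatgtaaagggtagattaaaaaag
WRKY75: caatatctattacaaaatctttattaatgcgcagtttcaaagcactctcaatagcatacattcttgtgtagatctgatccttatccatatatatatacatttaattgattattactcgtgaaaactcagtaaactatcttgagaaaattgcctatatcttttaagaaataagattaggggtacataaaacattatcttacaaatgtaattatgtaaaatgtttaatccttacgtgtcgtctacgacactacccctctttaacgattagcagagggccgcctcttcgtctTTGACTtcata
IRT3: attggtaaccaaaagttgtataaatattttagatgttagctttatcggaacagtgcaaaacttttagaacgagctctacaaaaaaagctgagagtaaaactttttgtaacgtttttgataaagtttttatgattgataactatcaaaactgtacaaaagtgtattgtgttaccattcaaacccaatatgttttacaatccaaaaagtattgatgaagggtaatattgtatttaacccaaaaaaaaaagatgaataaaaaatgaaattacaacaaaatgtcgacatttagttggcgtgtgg
TPPI: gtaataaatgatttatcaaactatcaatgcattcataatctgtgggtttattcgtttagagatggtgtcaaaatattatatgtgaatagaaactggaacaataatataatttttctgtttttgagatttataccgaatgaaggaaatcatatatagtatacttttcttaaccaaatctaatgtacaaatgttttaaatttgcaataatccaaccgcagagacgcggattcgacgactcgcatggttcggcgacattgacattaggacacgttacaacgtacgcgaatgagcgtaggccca

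Total counts were 20456036 to 20789232 in N2102362 and 20520901 to 20767791 in sprayed Col-0, so that 1 count was worth about 0.05 CPM (counts scaled to a common library size with TMM factors). The deposited files of both lines carry the word combined in their names and those of Col-0 do not. What it stands for is not given in the sources used here. Any difference in handling behind it cannot be told apart from line against Col-0. After the filter on low counts, 19666 genes were tested. Replicate 4 of N2102362 stood apart from the other 6 libraries. It lay at one end of the first principal component of the 7 libraries, which held 43.3% of the variance. Its correlations of log2 CPM with the other libraries were 0.9465 to 0.9708. Replicates 2 of both groups lay together at the other end and correlated at 0.9907 with each other.

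Few genes differed between line and wild type at the threshold used. In edgeR's quasi-likelihood test, 6 genes had a Benjamini-Hochberg adjusted p under 0.05 and are called here, 0.0305% of the genes tested. WRKY75, TPPI and the pseudogene AT1G42140 were higher in the line (0.0153%), and AT3G01345, IRT3 and CYP81D5 were lower (0.0153%). Below, rose and fell mean higher or lower than in sprayed Col-0, not a change over time, which was not measured. At an unadjusted p under 0.05 there were 914 genes, 505 higher and 409 lower, where 983 would lie under that value with no difference at all. With replicates 1 to 3 of the line, 7 genes were called, 0.0357% of 19630 tested: the same 6 and AT5G24240. Of these 7, 4 were higher (0.0204%) and 3 lower (0.0153%). DESeq2 called 9 genes, 0.0344% of 26183, which held the same 6 and added ESM1, AT5G24240 and AT2G01008. Of these 9, 5 were higher (0.0191%) and 4 lower (0.0153%).

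**Figure D1:**
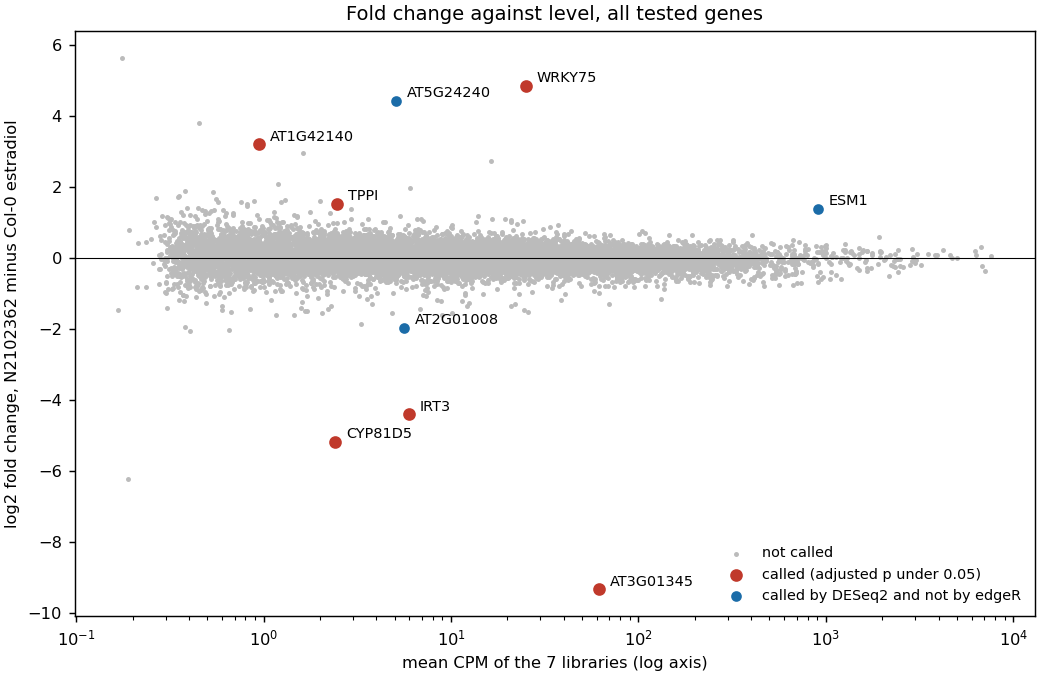
Log2 fold change of N2102362 over sprayed Col-0 (vertical axis) against the mean CPM of the 7 libraries (horizontal log axis) for the 19666 tested genes. The 6 called genes are red and named, the 3 that DESeq2 called and edgeR did not are blue. AT3G01345 lies lowest, at -9.33, and WRKY75 highest of the called genes, at 4.85.

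WRKY75 (AT5G13080, chr5:4149740-4151150, minus strand), the induced gene, rose. Its levels were 2.69, 0.627 and 1.18 CPM in replicates 1 to 3 of sprayed Col-0 and 29.6, 30.7, 28.2 and 82.1 CPM in replicates 1 to 4 of N2102362. Every line library lay above every Col-0 library, replicates 1 to 3 of the line lay close together and replicate 4 lay well above them. The means were 42.7 ± 26.3 CPM (SD, n = 4) and 1.5 ± 1.07 CPM (SD, n = 3). The log2 fold change was 4.85 ± 0.57 (SE), with an adjusted p of 0.00458 in edgeR's test. The two-sided exact permutation test gave 0.0286, the smallest value that 4 against 3 libraries allow. Without replicate 4 the log2 fold change was 4.33 (edgeR adjusted p = 0.00172).

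The call of WRKY75 depended on which libraries were in the fit. It was lost without Col-0 replicate 2 (4.46, edgeR adjusted p = 0.0532) or replicate 3 (4.72, edgeR adjusted p = 0.0651), and when the fit held the 7 compared libraries and no others (edgeR adjusted p = 0.150). Without Col-0 replicate 1 the log2 fold change was 5.56. In N2102363 the mean was 127 ± 39.3 CPM (SD, n = 4), and the difference between lines, N2102362 minus N2102363, was -1.57 ± 0.40 (SE) on the log2 scale. That difference was not called (edgeR p = 0.0017, adjusted p = 1.000), and the exact permutation p of the levels was 0.0571.

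TPPI (AT5G10100, chr5:3157980-3161708, plus strand) encodes a trehalose-6-phosphate phosphatase, an enzyme that removes the phosphate of the sugar signal trehalose 6-phosphate. It rose from 1.06, 1.16 and 1.33 CPM in sprayed Col-0 to 3.74, 3.66, 2.90 and 3.44 CPM in N2102362. The groups did not overlap, and both were tight. The log2 fold change was 1.53 ± 0.19 (SE, edgeR adjusted p = 0.00747), and 1.53 without replicate 4 (edgeR adjusted p = 0.0214). The call was lost without Col-0 replicate 1 (1.46, edgeR adjusted p = 0.0917) or replicate 2 (1.52, edgeR adjusted p = 0.0733), and with the compared groups alone (edgeR adjusted p = 0.150). N2102363 was at 3.79 ± 0.59 CPM (SD, n = 4), and the lines differed by -0.14 ± 0.16 (SE) on the log2 scale.

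AT1G42140 (chr1:15736521-15741101, minus strand) is annotated as a pseudogene. Its levels were 0.0528, 0.224 and 0.197 CPM in sprayed Col-0 and 1.85, 1.58, 1.22 and 1.54 CPM in N2102362. These are 10 counts in 3 libraries against 129 in 4, a ratio of 9.51 for line over Col-0 with an exact 95% interval of 5.01 to 20.3 for counting error only. The groups did not overlap, and the log2 fold change was 3.21 ± 0.34 (SE, edgeR adjusted p = 0.00145). Against Col-0 sprayed with water it was 2.47 (edgeR adjusted p = 0.00818). With the compared groups alone it was not called (edgeR adjusted p = 0.150), and a filter at a mean of 1 CPM removed it. In a search of all gene sequences with blastn, 112 other genes matched it over more than 100 bases and 56 of them at 90% identity or more. The closest was AT5G30269, at 91.1% over 4596 bases, so which copy the reads came from is uncertain. N2102363 was at 1.51 ± 0.15 CPM (SD, n = 4).

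**Figure D2:**
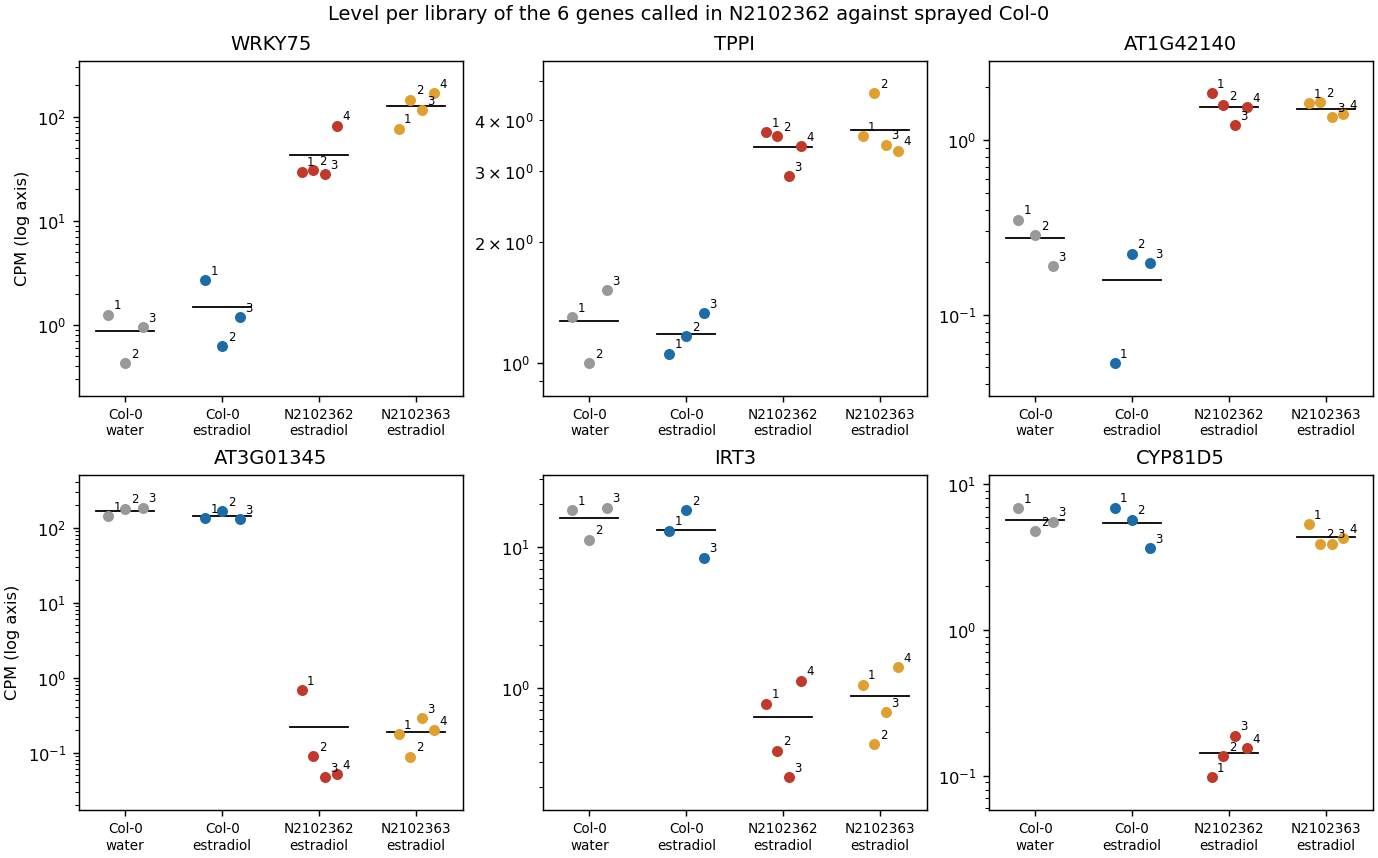
CPM per library on a log axis for the 6 called genes in all 4 groups, with the replicate number beside each point and a bar at the group mean. The 4 points of N2102362 lie apart from those of both Col-0 groups in all 6 panels, and in the panel of CYP81D5 those of N2102363 lie with Col-0.

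AT3G01345 (chr3:129138-130749, plus strand), annotated as an uncharacterized protein, fell furthest. It stood at 133, 166 and 130 CPM in sprayed Col-0 and at 0.680, 0.0903, 0.0468 and 0.0514 CPM in N2102362. In counts, the Col-0 libraries held 2524, 3700 and 2641 and the line libraries 14, 2, 1 and 1. A well-expressed gene of wild type was therefore near 0 in every line library, replicate 1 being the highest. The summed ratio of Col-0 over the line was 668, with an exact 95% interval of 423 to 1130 for counting error only. The fitted log2 fold change was -9.33 ± 0.41 (SE, edgeR adjusted p = 1.58e-07) and was -11.01 without replicate 1 of the line. N2102363 was also near 0, at 0.189 ± 0.083 CPM (SD, n = 4), and the difference between lines was 0.20 ± 0.72 (SE) on the log2 scale.

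IRT3 (AT1G60960, chr1:22445310-22447214, minus strand), a ZIP-family transporter of zinc and iron, fell in N2102362. Its levels were 12.9, 18.01 and 8.32 CPM in sprayed Col-0 and 0.777, 0.361, 0.234 and 1.13 CPM in the line. The lowest Col-0 library lay well above the highest line library. The summed ratio was 21.7 (exact 95% interval 16.4 to 29.4, counting error only), and the log2 fold change was -4.40 ± 0.46 (SE, edgeR adjusted p = 0.00145). Without replicate 4 it was -4.83 (edgeR adjusted p = 0.00172), and with the compared groups alone the call was lost (edgeR adjusted p = 0.0872). N2102363 was at 0.884 ± 0.439 CPM (SD, n = 4), and the lines differed by -0.51 ± 0.51 (SE) on the log2 scale.

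CYP81D5 (AT4G37320, chr4:17559580-17561727, minus strand), a cytochrome P450 gene, fell in N2102362, and it was the 1 gene called between the lines (0.00508% of genes tested). Its levels were 6.91, 5.69 and 3.64 CPM in sprayed Col-0 and 0.0972, 0.135, 0.187 and 0.154 CPM in N2102362, where the counts were 2, 3, 4 and 3. Every line library lay far under every Col-0 library, and the line libraries were alike. The summed ratio of Col-0 over the line was 37.5 (exact 95% interval 21.2 to 73.4, counting error only). The log2 fold change was -5.18 ± 0.30 (SE, edgeR adjusted p = 1.91e-06).

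In N2102363, by contrast, CYP81D5 stood at 4.35 ± 0.67 CPM (SD, n = 4), close to the 5.42 ± 1.65 CPM (SD, n = 3) of sprayed Col-0. The log2 fold change of N2102363 over Col-0 was -0.31 ± 0.21 (SE), not called (edgeR adjusted p = 0.543). The difference between lines was -4.87 ± 0.29 (SE) on the log2 scale, with an edgeR adjusted p of 6.29e-06. CYP81D5 was called in the comparison with Col-0 under all 19 other settings tried, with log2 fold changes from -5.40 to -4.97. No other tested gene was called between the lines, and 5 genes were called in N2102363 against sprayed Col-0 (0.0254%). The spray itself gave 0 called genes in Col-0 (0%) in edgeR's test, and 310 at an unadjusted p under 0.05. CYP81D5 differed by -0.08 ± 0.23 (SE) on the log2 scale between sprayed and water-treated Col-0.

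CYP81D5 lies in a row of related P450 genes, and its tested neighbours did not share its low level. CYP81D2 and CYP81D3, of the same row by locus ID, were not tested. CYP81D2 had 0 counts in all 7 libraries. CYP81H1, the nearest tested gene on one side, had a log2 fold change of -0.14 ± 0.17 (SE), and CYP81D4 on the other side had -0.16 ± 0.15 (SE). CYP81D8 was at -0.33 and CYP81F3 at 0.08. In a list of CYP81D, CYP81G, CYP81H and CYP81K members, which includes CYP81D5 and its neighbours of those subfamilies, all 9 tested genes had values under 0 and 1 was called, CYP81D5. The list's median was -0.30, against 0.002 over all genes tested. It was -0.08 against Col-0 sprayed with water and ran from -0.38 to -0.16 with single libraries left out, -0.16 being without replicate 3 of the line and -0.17 without Col-0 replicate 1. CYP81D11, which responds to many foreign compounds, was at 7.39, 3.00 and 6.40 CPM in Col-0 and at 1.07, 4.92, 1.31 and 4.06 CPM in the line, overlapping and not called.

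For none of the 6 called genes was any of the 10 nearest tested genes, 5 on each side, called. Their log2 fold changes lay between -0.50 and 0.24 around CYP81D5, between -0.20 and 0.51 around AT3G01345, and between -0.08 and 0.27 around IRT3. Around WRKY75 they lay between -0.23 and 0.55, around TPPI between -0.14 and 0.73 and around AT1G42140 between -0.41 and 0.37. Tested genes were sparse around AT1G42140, where these neighbours span chr1:14174981-15938863, a far wider stretch than around the other called genes. FLC, beside TPPI, was the 1 neighbour of 60 with an unadjusted p under 0.05. A pair of these neighbours had libraries that did not overlap between the groups, namely ABAP1, near WRKY75, at 0.54 ± 0.28 (SE), and the floral repressor FLC at 0.73 ± 0.28 (SE). Over all genes tested, 2.95% lay above Col-0 in this way. FLC was at 1.58, 1.12 and 1.62 CPM in sprayed Col-0 and 3.11, 1.99, 2.53 and 1.95 CPM in N2102362, and it was not called (edgeR adjusted p = 0.852).

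**Figure D3:**
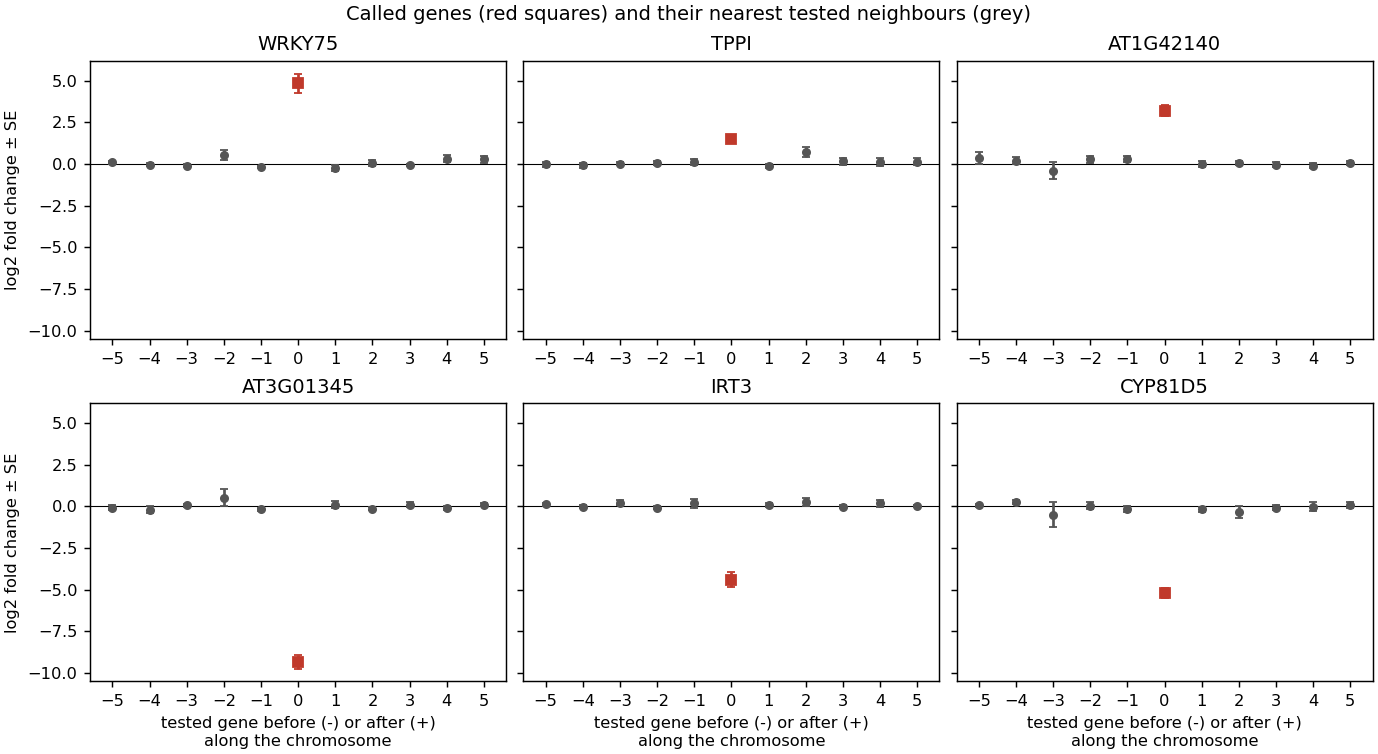
Log2 fold change of N2102362 over sprayed Col-0 with its SE for each called gene (red square) and the 5 nearest tested genes on each side in chromosome order (grey). The called genes stand alone, and the neighbours lie between -0.50 and 0.73.

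DESeq2 called 3 genes that edgeR did not. ESM1, which steers the breakdown of glucosinolates toward isothiocyanates, was at 423, 675 and 306 CPM in sprayed Col-0 and 931, 1721, 1251 and 1019 CPM in N2102362. The groups did not overlap. The log2 fold change was 1.39 ± 0.27 (SE), not called by edgeR (adjusted p = 0.380) and called by DESeq2 (adjusted p = 0.000268). N2102363 was at 973 ± 110 CPM (SD, n = 4), and ESM1 was not called there either (edgeR adjusted p = 0.431).

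AT5G24240 (chr5:8230942-8234150, minus strand), annotated as a phosphatidylinositol 4-kinase gamma-like protein, depended on replicate 4. It was at 0.475, 0.269 and 0.443 CPM in sprayed Col-0 and at 2.72, 10.7, 20.5 and 0.309 CPM in replicates 1 to 4 of N2102362. Replicates 1 to 3 lay above all Col-0 libraries, and replicate 4 lay among them. With all 4 the log2 fold change was 4.43 ± 1.02 (SE, edgeR adjusted p = 0.852), and without replicate 4 it was 4.84 ± 0.65 (SE, edgeR adjusted p = 0.0214). N2102363 was at 0.361 ± 0.101 CPM (SD, n = 4), and the difference between lines, 4.55 ± 0.91 (SE), was not called (edgeR adjusted p = 0.966). The gene overlaps AT5G24230 and AT5G24250, and the library kit does not mark strand.

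AT2G01008, annotated as a maternal effect embryo arrest protein, was at 15.3, 8.60 and 5.37 CPM in sprayed Col-0 and 1.85, 4.60, 2.11 and 1.39 CPM in N2102362. The log2 fold change was -1.96 ± 0.41 (SE), not called by edgeR (adjusted p = 0.589) and called by DESeq2 (adjusted p = 0.0102). N2102363 was lower still, at 1.37 ± 0.40 CPM (SD, n = 4).

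**Figure D4:**
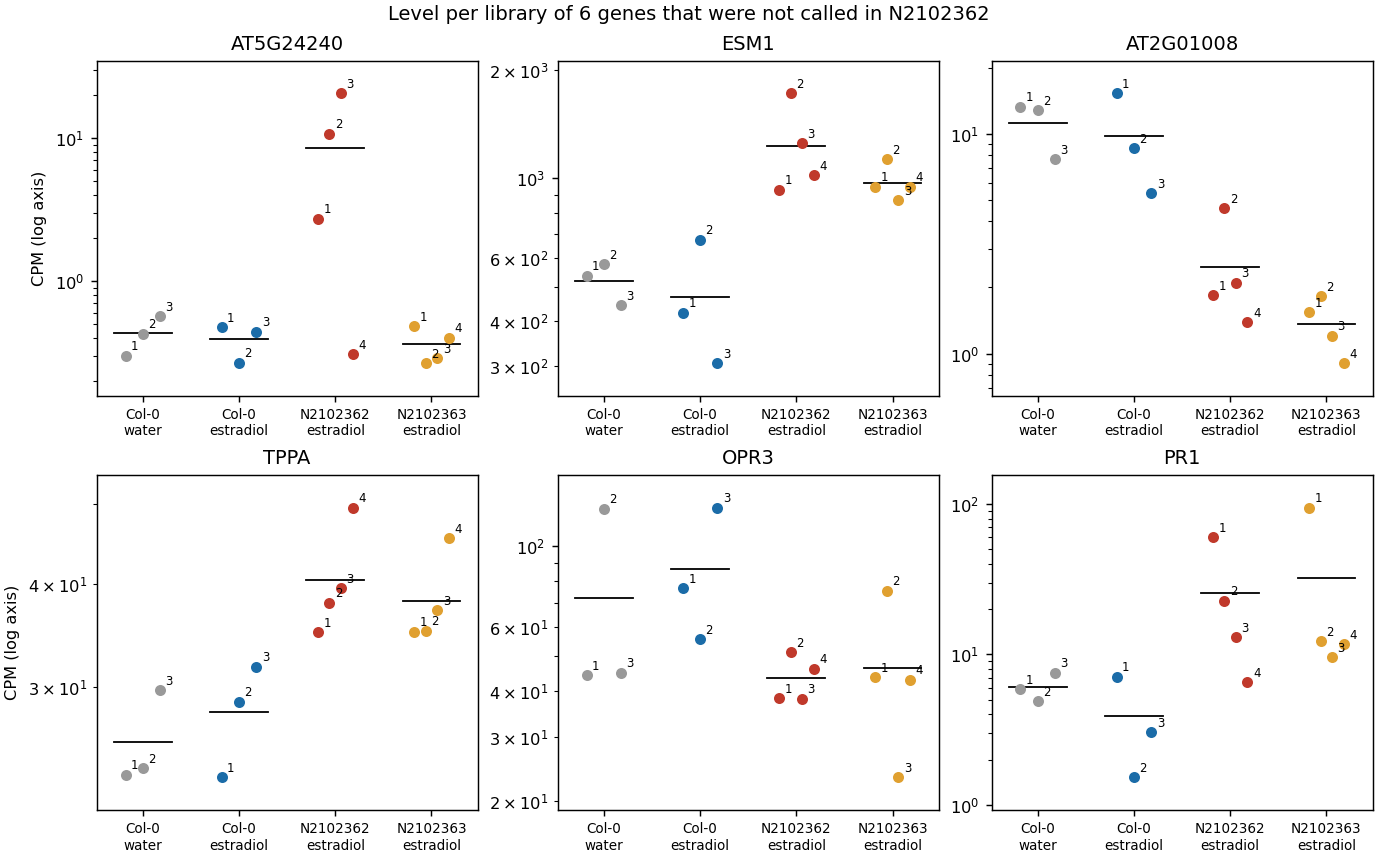
CPM per library on a log axis for 6 genes that edgeR did not call in N2102362, drawn as for the called genes. Replicate 4 of N2102362 lies with Col-0 for AT5G24240, and the N2102362 and sprayed Col-0 points do not overlap for ESM1, AT2G01008, TPPA and OPR3.

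Across the genome, 580 genes (2.95%) had all 4 line libraries above all 3 Col-0 libraries and 470 (2.39%) had them below. Among uncalled genes of this kind with a mean of at least 1 CPM, those with the smallest p included AT4G36120, a filament-like protein, at 0.51 ± 0.10 (log2 fold change and SE), and the sugar transporter gene STP11 at 1.16 ± 0.25. AT5G57340 was at 0.61 ± 0.14 and the RING-type protein gene AT3G47180 at 0.87 ± 0.21. On the low side stood the pseudogene AT4G16870 at -0.61 ± 0.14, AT2G47970, an NPL4 protein, at -0.44 ± 0.11, and AT1G08940, of the phosphoglycerate mutase family, at -0.97 ± 0.24. Their adjusted p-values in edgeR's test ran from 0.380 to 0.852.

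From 26 lists of hormone, defence, stress, nutrient, growth and cell type genes, 595 distinct genes were tested. Of these, 3 were called, IRT3, CYP81D5 and TPPI, against 6 of all 19666 genes tested (0.0305%). Lists were chosen with earlier results of these data known, so counts of called members cannot be read as an excess. Of these 595, 12 lay without overlap above Col-0 and 12 below, 2.02% each way. At an unadjusted p under 0.05 stood 29 of them, against 914 of all 19666 genes tested, and DESeq2 called ESM1 besides. In the list of zinc and iron genes, 1 of 38 tested was called (IRT3), and the median log2 fold change of the list was -0.03. IRT1, IRT2, ZIP8, ZIP10, ZIP12 and NAS2 had 0 counts in all 7 libraries, which allows up to 3 counts in a library. In the list of trehalose and low-energy genes 1 of 30 was called (TPPI), with a median of -0.07 (0.22 against Col-0 sprayed with water). TPPA, a second trehalose-6-phosphate phosphatase gene, was at 23.3, 28.8 and 31.8 CPM in Col-0 and 34.9, 38.0, 39.5 and 49.5 CPM in the line, without overlap. Its log2 fold change of 0.53 ± 0.15 (SE) was not called.

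Phosphate starvation, senescence and flowering lists, processes WRKY75 is known for, held 0 genes called by edgeR or DESeq2 and 1, 0 and 1 genes at an unadjusted p under 0.05. Of 22 tested phosphate starvation genes, 10 had values above 0 and 12 under 0, with a median of -0.01 and 0 called. RNS1, a ribonuclease of that response, was at 22.4, 1.3 and 19.7 CPM in Col-0 and 7.19, 3.75, 2.85 and 5.40 CPM in the line, with Col-0 replicate 2 under all line libraries. Its value of -1.59 ± 0.70 (SE) turned to 0.96 against Col-0 sprayed with water. Of 23 senescence genes, 4 were above 0 and 19 under 0 (median -0.22, 0 called), and SAG20 was at -0.45 ± 0.23 (SE). The senescence median was -0.48 without replicate 2 of the line and -0.08 against Col-0 sprayed with water. Of 18 flowering genes 11 were above 0 (median 0.07, 0.03 to 0.13 with single libraries left out, 0 called). Of 32 other WRKY genes 12 were above 0 (median -0.07, 0.03 without replicate 4, 0 called), and WRKY50 was at 0.65 ± 0.24 (SE) without overlap. Against Col-0 sprayed with water the median of these WRKY genes was 0.21.

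Defence lists had medians on both sides of 0 and held 0 genes called in the main edgeR fit. ESM1 was the 1 gene of them that DESeq2 called. With a replicate block over all groups edgeR called ESM1 too (adjusted p = 0.0234). It also did so without replicate 2 of both groups (adjusted p = 0.0493), a setting chosen after seeing the data. The salicylic acid gene PR2, also named BGL2, was called in the blocked fit of replicates 1 to 3 (edgeR adjusted p = 0.0452). In the main fit, at an unadjusted p under 0.05 stood 3 jasmonate, 3 salicylic acid, 2 detoxification, 1 indole or camalexin, 1 methionine-derived glucosinolate and 0 ethylene genes. Over all genes tested 49.6% of log2 fold changes were under 0 and 50.4% above 0. Under 0 were 31 of 35 tested genes of the jasmonate list, which had a median of -0.40. OPR3, which makes a jasmonate precursor, was at 76.7, 55.5 and 127 CPM in Col-0 and 38.3, 51.3, 38.1 and 46.2 CPM in the line, without overlap, at -0.99 ± 0.42 (SE). The jasmonate median was -0.63 without replicate 4 of the line or without Col-0 replicate 2, -0.14 without Col-0 replicate 3 and 0.06 against Col-0 sprayed with water. The list's level in sprayed Col-0 replicate 2, 0.54 log2 units under the group mean of each gene (-0.54), lay among those of the line (-0.69 to 0.01).

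In the list of tryptophan-derived glucosinolates and camalexin, 22 of 26 were under 0, with a median of -0.36, of -0.22 without replicate 4 and of -0.53 against Col-0 sprayed with water. ASA1, the first step of tryptophan synthesis, was at 252, 165 and 167 CPM in Col-0 and 150, 141, 140 and 89.8 CPM in the line, without overlap, at -0.58 ± 0.24 (SE). Ethylene genes had 23 of 28 under 0 with a median of -0.23, which was -0.41 without replicate 1 of the line, -0.14 without replicate 4, -0.12 without Col-0 replicate 1 and -0.13 against Col-0 sprayed with water. Detoxification genes had 17 of 19 under 0 (median -0.36, and -0.06 against Col-0 sprayed with water). Methionine-derived glucosinolate genes had 16 of 26 above 0 (median 0.06, and -0.14 without replicate 4).

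Salicylic acid genes had 15 of 25 above 0, with a median of 0.09, of 0.28 without replicate 4 and of -0.09 without replicate 1. PR1, a standard output of that pathway, was at 7.12, 1.52 and 3.05 CPM in Col-0 and at 60.4, 22.7, 13.0 and 6.53 CPM in the line. Replicates 1 to 3 of the line lay above all Col-0 libraries and replicate 4 lay within them, and the value of 2.73 ± 0.98 (SE) was not called (edgeR adjusted p = 0.852). ALD1, which starts the synthesis of pipecolic acid, was at 0.844, 0.224 and 0.197 CPM in Col-0 and 3.40, 1.90, 1.08 and 0.720 CPM in the line.

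**Figure D5:**
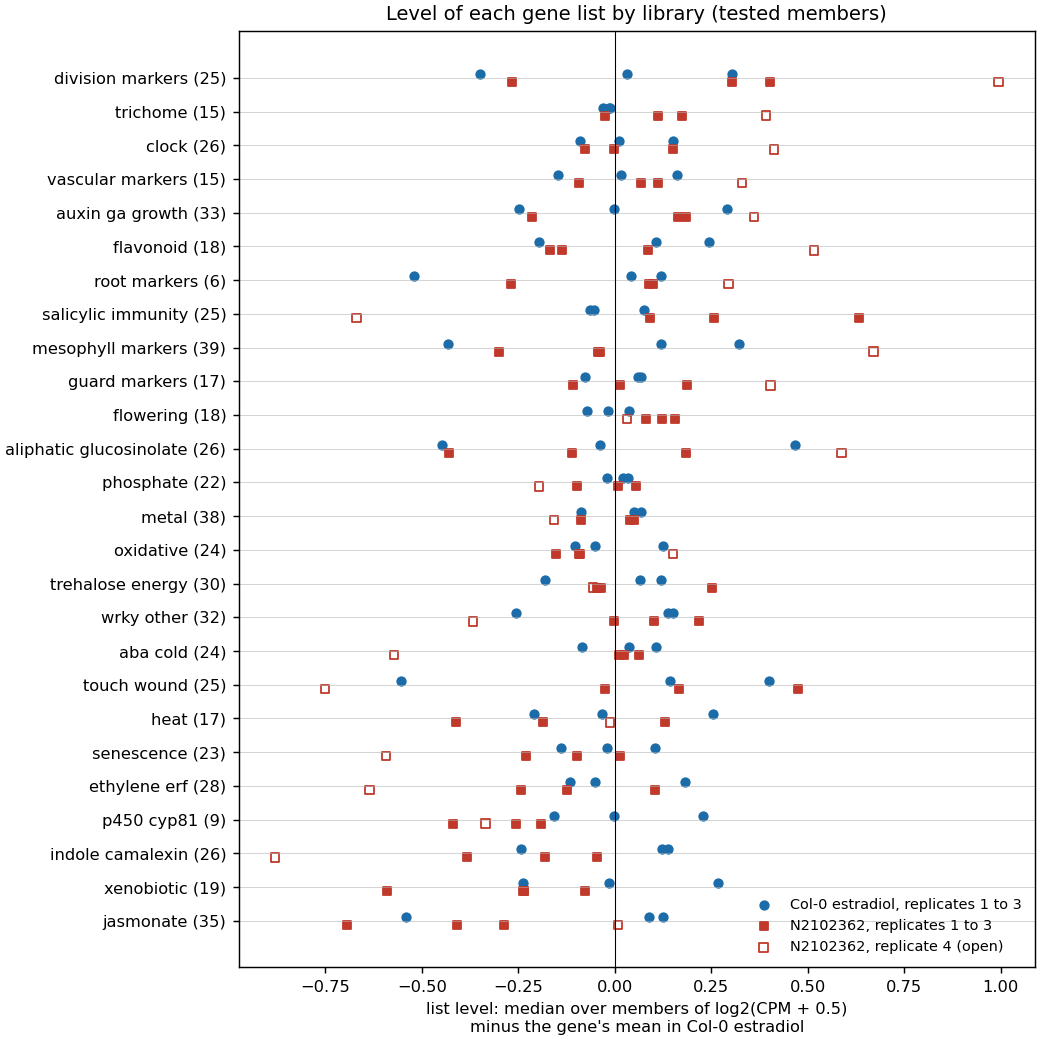
Level of each gene list in the 3 libraries of sprayed Col-0 (blue) and 4 of N2102362 (red, replicate 4 open), as the median over tested members of log2(CPM + 0.5) minus the gene's mean in sprayed Col-0; the number tested stands beside each name. Replicate 4 is the highest library for dividing cells (0.99) and green leaf tissue (0.67) and the lowest for indole and camalexin genes (-0.88).

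Marker lists moved with replicate 4. Green leaf markers, which define the labelled tissue, summed to between 72870 and 126400 CPM in sprayed Col-0 and between 81830 and 158100 CPM in N2102362. Of 39 tested 28 were above 0, with a median of 0.09 and of -0.14 without replicate 4. CA1, a chloroplast carbonic anhydrase gene, was at 1466, 1322 and 1348 CPM in replicates 1 to 3 of the line and at 4830 CPM in replicate 4, and its log2 fold change went from 0.59 to -0.11 without that library. Markers of dividing cells had 24 of 25 above 0, with a median of 0.46 and of 0.15 without replicate 4, and their summed levels were 109 to 166 CPM in Col-0 and 114 to 272 CPM in the line. CYCA1;1, a cyclin gene, was at 0.61 ± 0.25 (SE) and was not called.

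Circadian clock genes had 16 of 26 above 0, with a median of 0.15, of 0.09 without replicate 4 and of 0.07 to 0.29 with single Col-0 libraries left out. RVE1, a morning transcription factor, was at 10.9, 5.38 and 9.40 CPM in Col-0 and 14.96, 8.26, 9.92 and 35.8 CPM in the line, replicate 4 being the highest. Guard cell markers had 14 of 17 above 0 (median 0.09, and 0.02 without replicate 4), vascular markers 11 of 15 (0.13, and 0.07 without it) and trichome genes 12 of 15 (0.24, and 0.13 without it). Touch and wounding genes had 21 of 25 under 0 (median -0.11, 0.10 without replicate 4 and -0.36 without replicate 1). Against Col-0 sprayed with water the touch and wounding median was 0.30. Of 19 root markers 7 had 0 counts in all 7 libraries and 6 were tested, with summed levels of 286 to 580 CPM in Col-0 and 323 to 854 CPM in the line. The part of tissue make-up, time of day or replicate 4 in the values of uncalled genes was not tested. All 6 calls held without replicate 4.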

How the data were processed

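RNA was sequenced from pools of whole Arabidopsis rosettes. Per the labels' protocols, a TruSeq kit that does not mark strand was used on 100 ng of RNA. The authors deposited 1 read count for each gene, a whole number, not normalized. Per the submitters' processing notes the tools were FastQC, TopHat2, SAMtools and HTSeq on TAIR10. Their versions, the counting mode and the handling of reads with several matches are not given in the sources used here, and affect genes with close copies.

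Groups came from the sample titles. All 14 libraries entered 1 fit in edgeR 4.0.16 (R 4.3.3) with group as the sole factor, TMM scaling, filterByExpr (minimum count 10) and the robust quasi-likelihood F test, with 10 residual degrees of freedom. The filter kept 19666 of 33602 genes. The biological coefficient of variation was 0.196. Benjamini-Hochberg adjustment ran over all genes tested, with a threshold of 0.05, and the procedure was tested on simulated data. The simulated libraries had no replicate structure and none that stood apart. Genes as low as TPPI and AT1G42140 were not among those changed, so the simulation does not bear on such cases. P-values measure the spread between libraries, each labelled as a pool of rosettes. Because the origin of replicate 4 and the meaning of combined are not given, this spread may hold more than that between pools. Within the groups compared, no pair of libraries was a near copy (chi-square over degrees of freedom of at least 16.4). CPM values were computed here from the counts, and exact intervals (Clopper-Pearson) cover counting error only. List levels used a pseudocount of 0.5.

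Members and lists were chosen with earlier results of these data known. The text names the called genes, up to 4 genes of a list by p, and genes called by DESeq2 1.42.0 or without replicate 4. Uncalled genes averaging 1 CPM or more whose groups did not overlap were ranked by p. The text names some of the first 10 a direction. Genes were matched by locus ID, 32823 of 33602 to the RefSeq table and 687 of 693 list entries. The reference chromosomes end beyond the last gene of the files on each chromosome. Of the genes, 10599 have the same start and end in both, and gene coordinates are those of the files. Alternatives were RLE scaling, other filters, DESeq2, limma-voom (limma 3.58.1), the compared groups alone, replicate blocks, each library left out, replicate 4 of both lines left out, and the other Col-0 reference.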

Additional observations from a re-analysis of the deposited data

Results flagged for a closer look

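In N2102362, 65 named genes were checked for a library far from the other 3 of its group. Chance gives about 1 group in 20, but these genes share their libraries and many were chosen by p in them. The number of genes with such a library, 9, can therefore not be read against that rate. In 5 of the 9 that library was replicate 4: WRKY75 at 82.1 CPM, ASA1 at 89.8 CPM, the chitin-binding defence gene PR4 at 79.8 CPM, the clock gene LNK2 at 799 CPM and CA1 at 4830 CPM. WRKY75, LNK2 and CA1 were high there, and ASA1 and PR4 low. Replicate 1 stood alone for AT3G01345 at 0.680 CPM and for SARD4, a gene of pipecolic acid synthesis, at 15.9 CPM. Replicate 2 stood alone for OPR2 at 10.5 CPM and replicate 3 for AT4G16870 at 80.7 CPM.

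CYP81D5 had a different effect in the lines: N2102362 minus N2102363 was -4.87 on the log2 scale, tested as a contrast of the lines in the same fit, which equals the difference of their effects against the shared Col-0 libraries. Why the lines differ was not tested.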

How the results depend on the processing

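Over 19 other settings, the number of called genes ran from 2 to 9, and from 4 to 7 when single libraries were left out, with 1 to 4 higher. With the compared groups alone 2 genes were called, 0 of them higher. DESeq2 called 5 higher, and so did a reference of the mean of both Col-0 groups, which added AT3G52700 and SHP1. The fall of CYP81D5 passed the threshold in all 19, that of AT3G01345 and of IRT3 in 18. WRKY75 lost its call in 5, at log2 fold changes of 4.85 with the compared groups alone, 4.59 without replicate 2 of both groups (adjusted p = 0.0717, chosen after seeing the data), 4.46 without Col-0 replicate 2, 4.72 without Col-0 replicate 3 and 4.39 in the blocked fit of replicates 1 to 3. With single libraries left out its log2 fold change ran from 4.33 to 5.56, and both of these were called. TPPI lost it in 5 and AT1G42140 in 2. For these losses the cause was not tested, beyond the fewer libraries in each fit. Genes at an unadjusted p under 0.05 numbered 458 to 2232. Signs turned for CA1 without replicate 4 (-0.11, and 0.83 at most with single libraries left out), without replicate 4 of both lines (-0.11) and in the blocked fit of replicates 1 to 3 (-0.03), and for RNS1 against Col-0 sprayed with water (0.96).

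Replicate numbers are shared between groups. Deviations from the group means of libraries with the same number correlated at 0.281, 0.562 and 0.09. Those of libraries with different numbers correlated at -0.604 to 0.428. Replicates 2 and 3 of the line correlated best with their own number in Col-0, and replicate 1 with replicate 3 (0.428). The main fit did not pair the libraries, and fits with a replicate block are given next. A replicate block in the fit of all groups gave 7 calls, adding ESM1 (adjusted p = 0.0234). A replicate block over replicates 1 to 3 of the compared groups gave 3 calls, namely CYP81D5, IRT3 and BGL2. The 1 higher gene was BGL2, which is PR2 of the salicylic acid list, at 1.19 ± 0.08 (SE, edgeR adjusted p = 0.0452). WRKY75 was at 4.39 in that fit (edgeR adjusted p = 0.631). Depth limits AT1G42140, AT3G01345 and CYP81D5, whose low group held under 20 counts a gene in all.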
